A study of Mus with 9 samples.

Results

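The genes described here are 38 genes of lipogenesis and cholesterol synthesis, chosen by symbol from the 54532 genes counted in mouse kidney. They fall into 8 roles, which are 7 sterol sensors and lipogenic transcription factors, 4 enzymes that supply acetyl-CoA and NADPH, 3 of fatty acid synthesis, 4 desaturases, 5 elongases, 1 acyltransferase of glycerolipid synthesis, 7 enzymes from mevalonate to squalene and 7 from squalene to cholesterol. The kidneys came from 9 male C57BL/6 mice, all of which had 1 kidney removed at 18 months of age. The 3 mice of the 18 mo group were killed 1 week after that surgery without injections, the 3 mice of the 21 mo group were injected intraperitoneally with saline every day for 12 weeks from that time on, and the 3 mice of the 21 mo/O304 group were injected with O304 at 10 mg/kg/day over the same 12 weeks. O304 is a small molecule that activates AMPK, the kinase that senses low cellular energy. The comparison with saline at 21 months is of O304 injection, and RNA counts do not measure AMPK activity. Age, time since surgery and the injections differ together between the 18 mo group and the others and cannot be told apart. Each library is 1 mouse, and 15636378 to 18396725 reads were counted on genes. Expression is given as CPM, the count scaled to a fixed library size after TMM normalization, and levels of different genes are compared only as FPKM, which is per gene length.

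Fatty acids and cholesterol are both built from cytosolic acetyl-CoA. SREBP-1 and ChREBP switch on the genes of fatty acid synthesis and SREBP-2 those of cholesterol synthesis, while SCAP escorts the SREBP precursors out of the endoplasmic reticulum and the INSIG proteins hold them back when sterols are plentiful. AMPK is known to phosphorylate and inhibit acetyl-CoA carboxylase and HMG-CoA reductase, and it also acts on SREBP precursors, which RNA levels do not show. The proximal tubule, which makes up most of the kidney cortex, takes its energy mainly from fatty acid oxidation.

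The levels of the 38 genes in the 18 mo kidneys covered more than 3 orders of magnitude per gene length, a span that rests on Fdps at 0.0653 FPKM. The 37 genes that passed the filter ran from 1.45 to 163 FPKM. Me1, which encodes the cytosolic malic enzyme that yields NADPH, was highest at 163 ± 38.1 FPKM (SD, n = 3). It was followed by Hmgcs1, the cytosolic HMG-CoA synthase, at 82.5 ± 14.5 FPKM, the Δ6-desaturase gene Fads2 at 75.1 ± 3.96 FPKM and Aacs, acetoacetyl-CoA synthetase, at 66.9 ± 10.2 FPKM. Neighbours in this order from Hmgcs1 to Scd1, at 56.3 ± 25.1 FPKM, did not differ beyond their spread. The fatty acid synthase gene Fasn was lower, at 8.60 ± 0.657 FPKM, and the carboxylase gene Acaca lower still, at 1.45 ± 0.0972 FPKM. This order depends on the annotated gene lengths, such as 1508 bases for Fads2 and 17074 bases for Acaca. Fdps, which encodes farnesyl diphosphate synthase, was the lowest, with 56 counts over all 9 libraries, and it was the only 1 of the 38 genes that did not pass the filter on low counts. The other 37 had counts in every library. How reads that map to several places were counted is not given in the sources used here, so the Fdps level is uncertain.

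**Figure D1:**
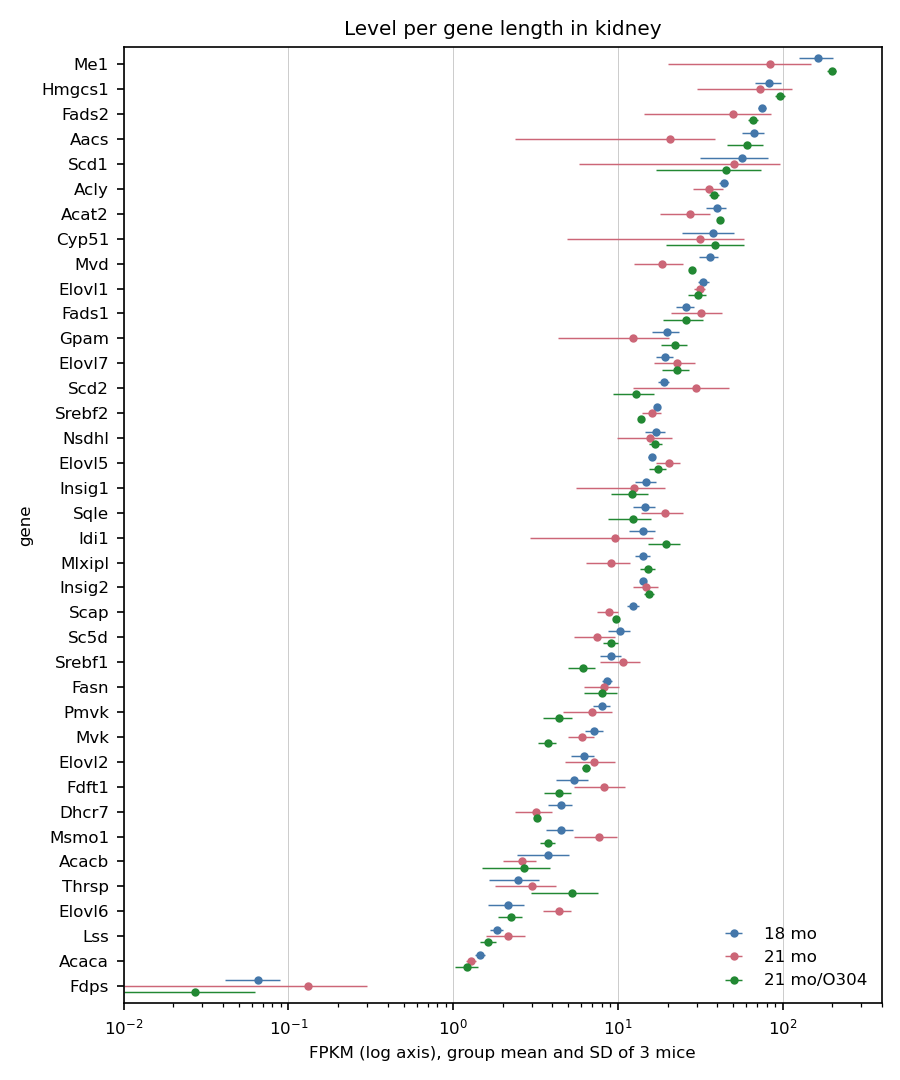
FPKM of the 38 genes on a log axis, ordered by the 18 mo level, with the mean (point) and SD (bar, cut at 0.01 FPKM) of 3 mice in each group. Me1 is at the top and Fdps at the bottom, and the bars of the 21 mo group are wide for Aacs, Me1, Scd1 and Cyp51.

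In the 21 mo kidneys Aacs, which activates acetoacetate, and Mvd, the decarboxylase that ends the mevalonate steps, were lower than at 18 mo in every library, with log2 fold changes of −1.70 and −0.95. The elongase gene Elovl6 and the sterol demethylase gene Msmo1 were higher in every library, at 1.02 and 0.77. With O304 all 4 lay on the 18 mo side of the 21 mo group. Their log2 fold changes against 21 mo were 1.56, 0.59, −0.96 and −1.03 in the same order. They are 4 of 7 genes whose 21 mo libraries did not overlap the 18 mo libraries, 2 above and 5 below. These are 5.41% and 13.5% of the 37 tested genes, against 13.5% and 15.3% of all genes tested. Of the rest, Mlxipl also lay on the 18 mo side with O304, Scap overlapped the 21 mo group and the mean of Acaca was lower still. Both comparisons share the 21 mo libraries, so they are not independent. The kinase genes Mvk and Pmvk were lower with O304 than in both other groups, at −0.94 and −0.87 against 18 mo. These differences did not pass the adjusted threshold in the fit of all 9 libraries.

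None of the 37 tested genes passed an adjusted p of 0.05 (edgeR's quasi-likelihood test) in any comparison. Of all 15902 genes tested, 0.0189% passed for 21 mo against 18 mo, and 0.0% passed both between 21 mo/O304 and 21 mo and between 21 mo/O304 and 18 mo. DESeq2 called 5 of the genes for 21 mo against 18 mo (against 12.3% of all genes), 7 between 21 mo/O304 and 21 mo (5.75%) and Mvk alone between 21 mo/O304 and 18 mo (0.884%). With limma voom and quality weights 22, 22 and 2 were called, against 52.9%, 41.1% and 2.61% of all genes. At an unadjusted p under 0.05, 3 were higher and 7 lower at 21 mo than at 18 mo (27.0%, against 26.1% of all genes tested). In 21 mo/O304 against 21 mo, 6 were higher and 8 lower (37.8%, against 20.7%), and in 21 mo/O304 against 18 mo 1 was higher and 6 lower (18.9%, against 9.66%). The median log2 fold change of the 37 genes was −0.17 for 21 mo against 18 mo, where that of all genes tested was 0.03, and −0.00 for 21 mo/O304 against 21 mo, where that of all genes was −0.02. It was −0.17 for 21 mo/O304 against 18 mo, where that of all genes was 0.00. The medians that involve the 21 mo group depended on single libraries. With 21 mo replicate 1 left out, the median was −0.28 between 21 mo and 18 mo and 0.20 between 21 mo/O304 and 21 mo (all genes 0.05 and −0.04), and without 21 mo replicate 3 they were −0.04 and −0.09 (all genes −0.00 and 0.01). The comparisons share groups, so their values are not independent of each other.

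The 21 mo libraries differed most among themselves. The mean log2 CPM of the 37 genes, relative to the 18 mo mean, was 0.22, −0.40 and −0.49 in 21 mo replicates 1, 2 and 3. With O304 it was 0.05, −0.21 and −0.24. In 21 mo replicate 1, 20 of the 37 genes lay above every 18 mo library and 8 below, while 6 lay above and 24 below in replicate 2, and 8 above and 23 below in replicate 3. Over all genes tested, 31.1%, 37.3% and 41.3% lay above and 33.4%, 36.1% and 40.5% below in replicates 1, 2 and 3. Over all genes, biological variation between mice came to a coefficient of 44.0% at 21 mo, against 18.0% at 18 mo and 20.6% with O304. The 10 proximal tubule markers, which include Slc34a1 and Lrp2, summed to 30488, 7939 and 1440 CPM in 21 mo replicates 1, 2 and 3, against 31911 to 39574 CPM at 18 mo and 36628 to 42987 CPM with O304. Of these 10, 4 were lower in every 21 mo library than in every 18 mo library, and none was at 0. The 7 macrophage markers summed to 403, 447 and 1282 CPM in the 21 mo group, against 198 to 291 CPM at 18 mo and 314 to 325 CPM with O304. The 6 fibroblast markers summed to 130, 553 and 1308 CPM in the 21 mo group, against 160 to 243 CPM and 100.3 to 239 CPM. The part of these marker levels in the results that follow was not tested, and in whole kidney fewer cells of a type and less RNA per cell cannot be told apart.

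Without 21 mo replicate 1, 14 of the 37 genes passed an adjusted p of 0.05 for 21 mo against 18 mo, 1 higher and 13 lower, against 25.4% of the 16463 genes then tested. For 21 mo/O304 against 21 mo 12 passed, 9 higher and 3 lower, against 23.1%, and 10 genes passed in both comparisons, which share the 2 remaining 21 mo libraries. Between 21 mo/O304 and 18 mo, where this fit called 0 of them, it called 0.0% of all genes. None of the 37 genes passed in any comparison when any other single library was left out. The results below are therefore given with all 9 libraries and, where the call differs, without 21 mo replicate 1. That fit was picked out because of its calls, and it leaves 2 mice in the 21 mo group. The library left out had the highest summed proximal tubule markers of its group, the nearest to the 18 mo range. The adjusted p-values of that fit are therefore given as description and not as support for a difference.

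**Figure D2:**
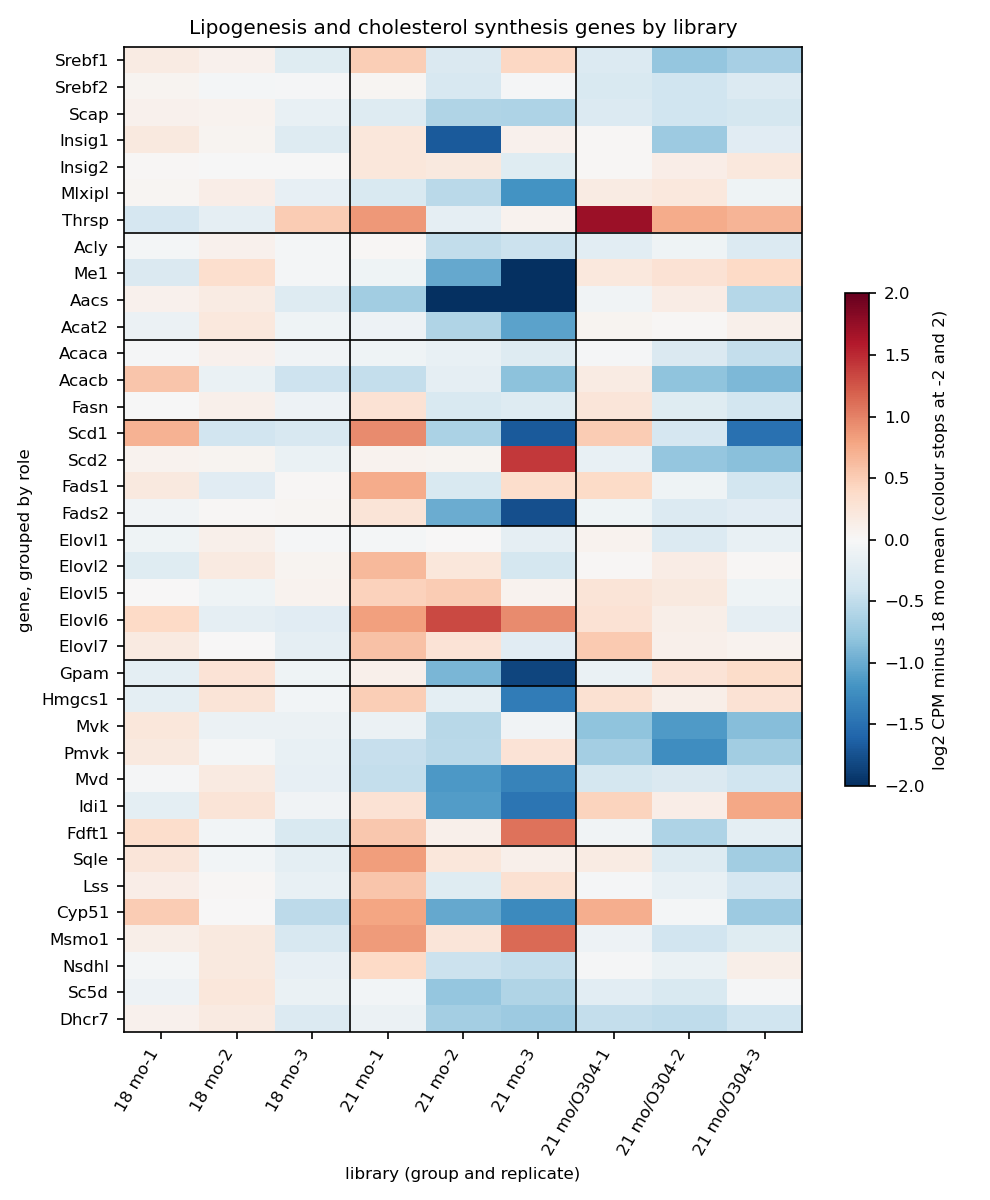
Log2 CPM of the 37 tested genes in each of 9 libraries, relative to the mean of the 18 mo group (red higher, blue lower), with black lines between roles and groups. The deepest blue is at Aacs in 21 mo replicates 2 and 3 and at Me1 in 21 mo replicate 3, and 21 mo replicate 1 is closer to the 18 mo columns for both genes.

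The acetyl-CoA and NADPH supply genes had the lowest median of the roles with more than 1 gene for 21 mo against 18 mo, at −0.75 on the log2 scale, and all 4 were lower. Aacs (chromosome 5, 125475814 to 125517410, plus strand, GRCm38), whose product activates acetoacetate for lipid synthesis, was at 279, 296 and 221 CPM at 18 mo, 163, 58.8 and 23.9 CPM at 21 mo and 252, 293 and 178 CPM with O304, listed here and below in the order of replicates 1, 2 and 3. Every 21 mo library was below all 18 mo and all 21 mo/O304 libraries. Aacs had a log2 fold change of −1.70 (edgeR adjusted p = 0.113, SE 0.57) for 21 mo against 18 mo and 1.56 (edgeR adjusted p = 0.197, SE 0.57) for 21 mo/O304 against 21 mo. Without 21 mo replicate 1 these were −2.67 (adjusted p = 0.00532) and 2.54 (adjusted p = 0.00786), both past the threshold.

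Me1 was at 521, 802 and 618 CPM at 18 mo, 597, 313 and 91.9 CPM at 21 mo and 738, 779 and 842 CPM with O304. The 21 mo group overlapped the 18 mo group through replicate 1, and all O304 libraries were above all 21 mo libraries. Me1 had a log2 fold change of −0.95 (edgeR adjusted p = 0.281, SE 0.53) for 21 mo against 18 mo and 1.23 (edgeR adjusted p = 0.235, SE 0.53) for 21 mo/O304 against 21 mo, and −1.66 (adjusted p = 0.0323) and 1.95 (adjusted p = 0.0228) without 21 mo replicate 1. Acat2, the cytosolic thiolase that joins 2 acetyl-CoA units, was at 96.0, 119.9 and 97.4 CPM at 18 mo, 96.7, 68.7 and 49.2 CPM at 21 mo and 108, 106 and 111 CPM with O304. Its log2 fold changes were −0.55 (edgeR adjusted p = 0.162, SE 0.22) and 0.60 (edgeR adjusted p = 0.198, SE 0.22) in the same comparisons, and −0.81 (adjusted p = 0.0133) and 0.87 (adjusted p = 0.0132) without that library. Reads of Acat2 can be shared with Acat3, a closely related gene, which was at 10.7, 23.2 and 22.1 CPM in the 21 mo libraries and 11.8, 11.3 and 15.3 CPM in the 18 mo libraries.

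Acly, the citrate lyase that makes cytosolic acetyl-CoA, varied less. It was at 232, 251 and 231 CPM at 18 mo, 243, 169 and 176 CPM at 21 mo and 206, 225 and 198 CPM with O304. Replicate 1 of the 21 mo group lay within the 18 mo range and replicates 2 and 3 below it, and the log2 fold change of −0.28 (edgeR adjusted p = 0.304, SE 0.17) for 21 mo against 18 mo was −0.45 (adjusted p = 0.0360) without 21 mo replicate 1. For 21 mo/O304 against 21 mo the 4 genes had a median log2 fold change of 0.92, and all 4 were higher. All 4 kept these directions without 21 mo replicate 1, with medians of −1.23 (21 mo against 18 mo) and 1.41 (with O304), and without 21 mo replicate 3, with medians of −0.44 and 0.60. The summed proximal tubule markers given above ran in the same order within the 21 mo group as Aacs, Me1 and Acat2, highest in replicate 1 and lowest in replicate 3. That order was not particular to this role. Mlxipl, Fads2 and Gpam had it too, as did Sqle and Elovl7, whose 21 mo means were above their 18 mo means. Its share among all genes was not counted, and a link to the markers was not tested.

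**Figure D3:**
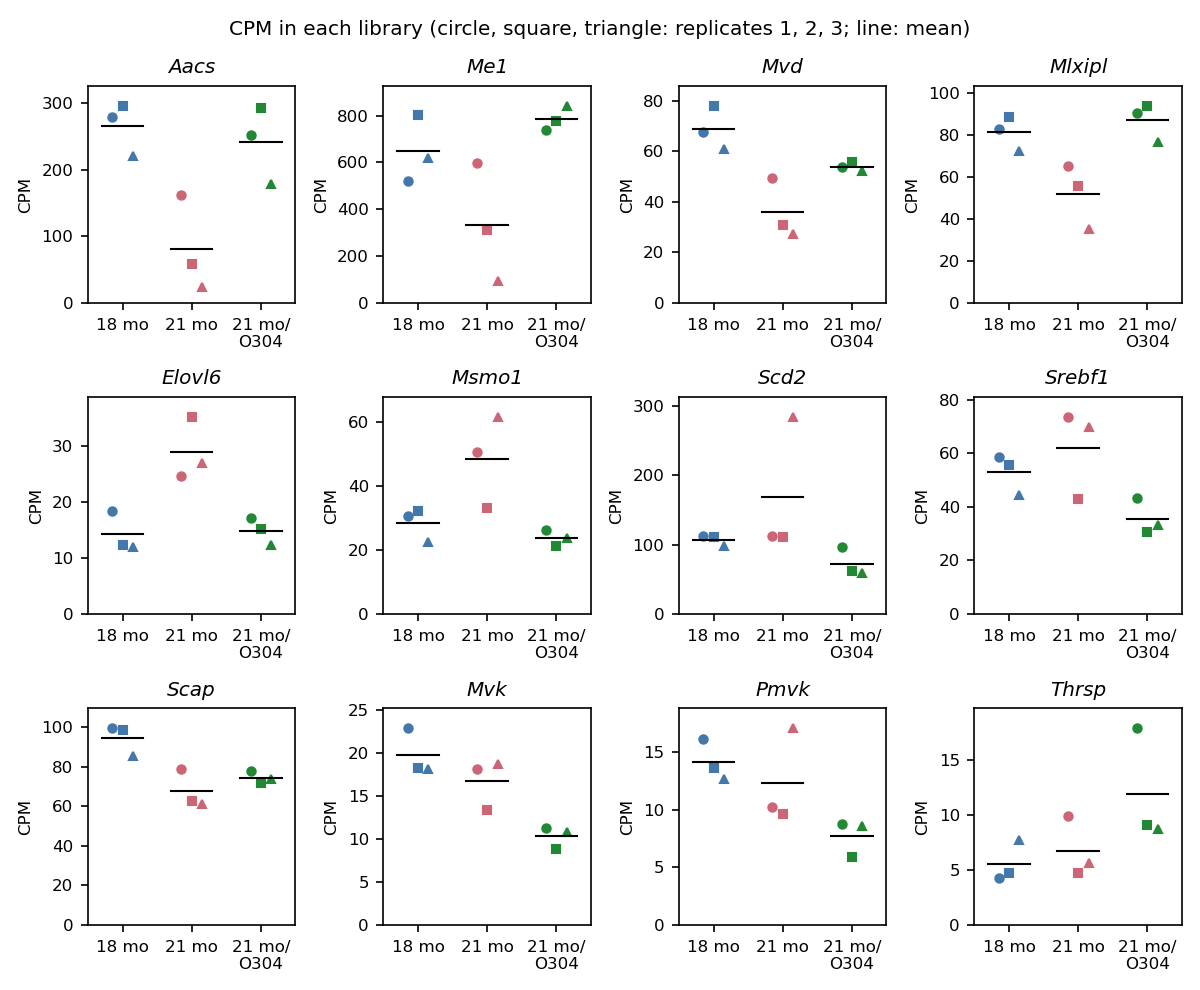
CPM of 12 genes in each library (circle, square and triangle for replicates 1, 2 and 3), with the group mean as a line and every axis starting at 0. Aacs, Mvd and Mlxipl lie lowest in the 21 mo group, Elovl6 and Msmo1 lie highest there, and Mvk and Pmvk lie lowest in the 21 mo/O304 group.

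None of the 3 genes listed in the role of fatty acid synthesis passed the threshold with all 9 libraries or with any 1 of them left out. Fasn, which encodes the fatty acid synthase that assembles palmitate, was at 96.5, 104 and 90.7 CPM at 18 mo, 119, 78.8 and 80.9 CPM at 21 mo and 114, 82.2 and 75.1 CPM with O304. These groups overlapped, and replicate 1 lay above the 18 mo range in both 21-month groups. Acaca, the cytosolic acetyl-CoA carboxylase gene, was at 25.1, 27.2 and 24.3 CPM at 18 mo, 24.0, 22.9 and 21.3 CPM at 21 mo and 25.1, 20.8 and 18.4 CPM with O304. Every 21 mo library was below the lowest 18 mo library, by a small margin, as were 13.5% of the 37 genes and 15.3% of all genes tested. Acacb, the mitochondrial carboxylase gene, was at 52.5, 32.6 and 27.0 CPM at 18 mo, 25.7, 31.7 and 20.2 CPM at 21 mo and 40.0, 20.4 and 19.2 CPM with O304 and its groups overlapped. On the log2 scale the 3 genes differed by −0.53 to −0.07 between 21 mo and 18 mo, and by −0.08 to 0.04 between 21 mo/O304 and 21 mo.

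Among the transcription factors, the ChREBP gene Mlxipl was lowest at 21 mo, like Aacs. Mlxipl (chromosome 5, 135089890 to 135138382, plus strand) was at 83.0, 88.3 and 72.1 CPM at 18 mo, 65.2, 55.8 and 35.3 CPM at 21 mo and 90.4, 93.9 and 76.5 CPM with O304. Every 21 mo library was below every library of the other groups. Mlxipl had a log2 fold change of −0.64 (edgeR adjusted p = 0.111, SE 0.21) for 21 mo against 18 mo and 0.74 (edgeR adjusted p = 0.175, SE 0.21) for 21 mo/O304 against 21 mo, and −0.82 (adjusted p = 0.0231) and 0.93 (adjusted p = 0.0184) without 21 mo replicate 1, both past the threshold.

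Srebf1, which encodes SREBP-1 (counts do not separate its isoforms), was at 58.8, 55.6 and 44.3 CPM at 18 mo, 73.7, 42.8 and 69.9 CPM at 21 mo and 43.3, 30.6 and 33.1 CPM with O304. The O304 libraries were all below the lowest 18 mo library, but 21 mo replicate 2 was below the highest O304 library. Srebf1 had a log2 fold change of −0.80 (edgeR adjusted p = 0.175, SE 0.23) for 21 mo/O304 against 21 mo and −0.57 (edgeR adjusted p = 0.474, SE 0.22) for 21 mo/O304 against 18 mo. Srebf2, which encodes SREBP-2, was at 133, 125 and 126 CPM at 18 mo, 132, 102 and 125 CPM at 21 mo and 104, 97.1 and 106 CPM with O304. Its O304 libraries were also below all 18 mo libraries, with a log2 fold change of −0.32 (edgeR adjusted p = 0.473, SE 0.13).

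Scap (chromosome 9, 110333288 to 110384950, plus strand) was at 99.7, 98.7 and 85.3 CPM at 18 mo, 78.7, 62.5 and 61.3 CPM at 21 mo and 77.8, 71.5 and 73.6 CPM with O304. Both 21-month groups lay below the lowest 18 mo library. Scap had a log2 fold change of −0.49 (edgeR adjusted p = 0.0823, SE 0.13) for 21 mo against 18 mo, −0.59 (adjusted p = 0.0105) without 21 mo replicate 1, and −0.35 (edgeR adjusted p = 0.459, SE 0.13) for 21 mo/O304 against 18 mo. The sterol-regulated Insig1 ranged from 14.5 to 54.9 CPM over the 9 libraries, with both ends in the 21 mo group, and Insig2 from 42.9 to 58.9 CPM.

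Thrsp, which encodes Spot 14, a lipogenic protein abundant in fat, was at 4.27, 4.74 and 7.75 CPM at 18 mo, 9.90, 4.77 and 5.68 CPM at 21 mo and 18.0, 9.12 and 8.72 CPM with O304. All O304 libraries were above all 18 mo libraries, and 21 mo replicate 1 lay among them. The difference of Thrsp for 21 mo/O304 against 18 mo was, on the log2 scale, 1.09 (edgeR adjusted p = 0.453, SE 0.40). The 10 adipocyte markers summed to 408, 142 and 329 CPM in the O304 libraries, against 64.3 to 121 CPM at 18 mo and 38.4 to 133 CPM at 21 mo, and Adipoq, which defines fat cells, was at 21.6, 1.97 and 15.1 CPM with O304 and at 0 in 3 of the other 6 libraries. Of these 10 markers, 6 were above every 18 mo library in all O304 libraries, and their part in the Thrsp level was not tested.

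The desaturases split between close neighbours. Scd2 (chromosome 19, 44293676 to 44306864, plus strand) encodes a stearoyl-CoA Δ9-desaturase and lies 87.6 kb from Scd1 on the same chromosome. It was at 112, 111 and 97.5 CPM at 18 mo, 112, 110.3 and 284 CPM at 21 mo and 95.9, 62.6 and 59.7 CPM with O304. All O304 libraries were below all other libraries, and 21 mo replicate 3 stood alone at the top. Scd2 had a log2 fold change of −1.22 (edgeR adjusted p = 0.176, SE 0.37) for 21 mo/O304 against 21 mo and 0.66 (edgeR adjusted p = 0.275, SE 0.36) for 21 mo against 18 mo. Without 21 mo replicate 1 the former was −1.45 (adjusted p = 0.0250), while without 21 mo replicate 3 they were −0.60 and 0.04, neither past the threshold. The macrophage and fibroblast markers given above were also highest in 21 mo replicate 3.

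Scd1 itself was at 430.5, 204 and 211 CPM at 18 mo, 508, 171 and 82.5 CPM at 21 mo and 375, 209 and 93.9 CPM with O304, with replicate 1 highest in every group. Per gene length, the ratio of Scd1 to Scd2 was 4.32, 2.07 and 2.44 in the 18 mo libraries, 5.11, 1.75 and 0.327 in the 21 mo libraries and 4.41, 3.76 and 1.78 in the 21 mo/O304 libraries. Only in 21 mo replicate 3 did Scd2 exceed Scd1.

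Fads2 and Fads1, which encode the Δ6- and Δ5-desaturases of polyunsaturated fatty acids, lie 81.4 kb apart on chromosome 19. Fads2 was at 111, 119 and 120.3 CPM at 18 mo, 139, 58.7 and 34.3 CPM at 21 mo and 110.1, 96.7 and 99.6 CPM with O304, and Fads1 was at 104, 78.1 and 92.9 CPM at 18 mo, 153, 73.5 and 116 CPM at 21 mo and 119, 85.6 and 70.4 CPM with O304. The log2 fold change of Fads2 was −0.60 (edgeR adjusted p = 0.374, SE 0.41) for 21 mo against 18 mo and 0.40 (edgeR adjusted p = 0.565, SE 0.41) for 21 mo/O304 against 21 mo, and −1.31 (adjusted p = 0.00629) and 1.13 (adjusted p = 0.0116) without 21 mo replicate 1. Fads1 was not past the threshold with or without it. The ratio of Fads1 to Fads2 per length was 0.411, 0.287 and 0.337 at 18 mo, 0.479, 0.547 and 1.48 at 21 mo and 0.470, 0.386 and 0.308 with O304, and it exceeded 1 in 21 mo replicate 3 alone. Where the ratio passes 1 depends on the annotated lengths, 3456 bases for Fads1 and 1508 for Fads2. In CPM, without length, Fads1 was above Fads2 in every 21 mo library and in O304 replicate 1.

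**Figure D4:**
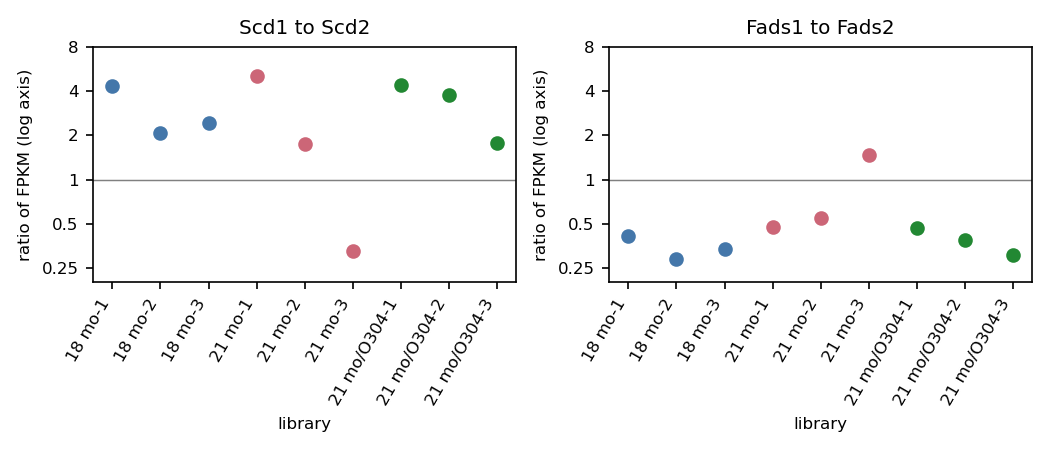
Ratio of FPKM on a log axis for the neighbouring pairs Scd1 to Scd2 and Fads1 to Fads2 in each of the 9 libraries, with a line at equal levels. The 21 mo replicate 3 library has the lowest Scd1 to Scd2 ratio, 0.327, and the highest Fads1 to Fads2 ratio, 1.48.

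Of the elongases, Elovl6 stood apart. Elovl6 (chromosome 3, 129532355 to 129638495, plus strand), which extends palmitate to stearate, was at 18.5, 12.4 and 11.99 CPM at 18 mo, 24.7, 35.3 and 27.0 CPM at 21 mo and 17.2, 15.2 and 12.3 CPM with O304. Every 21 mo library was above every 18 mo and every O304 library. Its log2 fold change of 1.02 (edgeR adjusted p = 0.0631, SE 0.22) for 21 mo against 18 mo had the smallest adjusted p of the 37 genes, and that for 21 mo/O304 against 21 mo was −0.96 (edgeR adjusted p = 0.175, SE 0.22). Leaving out 21 mo replicate 1, they were 1.14 (adjusted p = 0.0126) and −1.07 (adjusted p = 0.0182). Elovl6 was at 2.15 ± 0.521 FPKM in the 18 mo kidneys, 1 of the lowest levels of the 38 genes.

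Elovl5, which extends polyunsaturated chains, was at 58.5, 54.6 and 61.0 CPM at 18 mo, 79.9, 82.9 and 60.8 CPM at 21 mo and 69.4, 66.5 and 54.9 CPM with O304, with a log2 fold change of 0.36 (edgeR adjusted p = 0.166, SE 0.15) for 21 mo against 18 mo. Elovl7 was at 90.0, 79.6 and 70.3 CPM at 18 mo, 119.9, 96.4 and 67.7 CPM at 21 mo and 115, 85.3 and 83.1 CPM with O304, and Elovl1 and Elovl2 also overlapped between the groups, at 76.1 to 99.3 CPM and 19.6 to 39.3 CPM over all libraries. Of the 5 elongases, 4 were higher at 21 mo than at 18 mo and all 5 were lower with O304 than in the 21 mo group, with medians of 0.24 and −0.16 on the log2 scale, where Elovl7 was at −0.00 with O304. Of all genes tested, 52.7% were higher at 21 mo than at 18 mo and 48.2% were higher with O304 than at 21 mo. When 21 mo replicate 1 was left out, 3 of the 5 elongases were higher and 2 lower at 21 mo, and 2 were higher and 3 lower with O304, with medians of 0.054 and −0.040.

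Gpam, the mitochondrial acyltransferase gene for the first step of glycerolipid synthesis, was at 67.8, 93.8 and 73.2 CPM at 18 mo, 83.4, 41.3 and 21.7 CPM at 21 mo and 70.3, 94.1 and 100.02 CPM with O304. Its 21 mo range enclosed values both within and far below the 18 mo range. The log2 fold change was −0.68 (edgeR adjusted p = 0.305, SE 0.40) for 21 mo against 18 mo and 0.86 (edgeR adjusted p = 0.261, SE 0.41) for 21 mo/O304 against 21 mo, and −1.30 (adjusted p = 0.0155) and 1.48 (adjusted p = 0.0131) without 21 mo replicate 1.

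Along the mevalonate route, the kinase genes were lowest with O304 and the decarboxylase gene was lowest at 21 mo. Mvk (chromosome 5, 114444269 to 114460591, plus strand), mevalonate kinase, was at 23.0, 18.2 and 18.2 CPM at 18 mo, 18.2, 13.4 and 18.8 CPM at 21 mo and 11.3, 8.88 and 10.8 CPM with O304. Pmvk (chromosome 3, 89454541 to 89469013, plus strand), which encodes the kinase of the next step, was at 16.1, 13.6 and 12.7 CPM at 18 mo, 10.2, 9.60 and 17.1 CPM at 21 mo and 8.72, 5.90 and 8.60 CPM with O304. Both were lower in all O304 libraries than in all other libraries, as was Scd2, making 3 of the 37 genes (8.11%, against 2.38% of all genes tested), and none was above all others. The log2 fold changes of Mvk were −0.70 (edgeR adjusted p = 0.175, SE 0.18) for 21 mo/O304 against 21 mo and −0.94 (edgeR adjusted p = 0.323, SE 0.19) for 21 mo/O304 against 18 mo. Those of Pmvk were −0.67 (edgeR adjusted p = 0.210, SE 0.26) and −0.87 (edgeR adjusted p = 0.361, SE 0.26). For 21 mo/O304 against 18 mo these were the lowest adjusted p-values of the 37 genes. The summed proximal tubule and fibroblast markers overlapped between these groups, as did the T and B cell markers, at 216 to 699 CPM with O304 against 106 to 227 CPM. Of the 6 fibroblast markers, 3 were below every 18 mo library in all O304 libraries and 0 above. Of all genes tested, 13.3% were below and 13.2% above in this way. The summed macrophage markers, at 314 to 325 CPM against 198 to 291 CPM, were higher in every O304 library. So were the summed adipocyte markers, at 142 to 408 CPM against 64.3 to 121 CPM. The part of these markers in the Mvk and Pmvk levels was not tested.

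Mvd (chromosome 8, 122433601 to 122443422, minus strand) encodes the decarboxylase that follows Pmvk, and was at 67.5, 77.9 and 60.9 CPM at 18 mo, 49.2, 30.9 and 27.2 CPM at 21 mo and 53.7, 55.8 and 52.1 CPM with O304. The 21 mo libraries were lowest, the O304 libraries intermediate and the 18 mo libraries highest, with no overlap. The log2 fold change was −0.95 (edgeR adjusted p = 0.0672, SE 0.21) for 21 mo against 18 mo, 0.59 (edgeR adjusted p = 0.192, SE 0.21) for 21 mo/O304 against 21 mo and −0.35 (edgeR adjusted p = 0.626, SE 0.21) for 21 mo/O304 against 18 mo. Without 21 mo replicate 1 the former values were −1.23 (adjusted p = 0.00312) and 0.88 (adjusted p = 0.00749), both past the threshold.

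Idi1, the isomerase gene after Mvd, was at 44.5, 61.0 and 48.5 CPM at 18 mo, 62.5, 23.4 and 18.5 CPM at 21 mo and 69.6, 55.7 and 86.8 CPM with O304. The 21 mo group overlapped both others through replicate 1, and the log2 fold change of −0.57 (edgeR adjusted p = 0.399, SE 0.41) for 21 mo against 18 mo and 1.03 (edgeR adjusted p = 0.217, SE 0.41) for 21 mo/O304 against 21 mo became −1.28 (adjusted p = 0.00769) and 1.75 (adjusted p = 0.00532) without it. Hmgcs1, which makes HMG-CoA at the entry of the route, was at 338, 462 and 371 CPM at 18 mo, 544, 339 and 147 CPM at 21 mo and 479.6, 421 and 475 CPM with O304. Its 21 mo group spanned the widest range, and edgeR called it neither with nor without replicate 1, while limma voom with quality weights called it for 21 mo/O304 against 21 mo.

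Fdft1, squalene synthase, was at 29.6, 22.3 and 18.8 CPM at 18 mo, 33.6, 24.7 and 49.1 CPM at 21 mo and 21.9, 15.1 and 20.1 CPM with O304. All O304 libraries were below all 21 mo libraries, with a log2 fold change of −0.91 (edgeR adjusted p = 0.176, SE 0.27), and that for 21 mo against 18 mo was 0.60 (edgeR adjusted p = 0.195, SE 0.27). Replicate 3 was the highest 21 mo library, and leaving it out gave −0.61 and 0.29 in the same order. Fdft1 overlaps the far more abundant lysosomal protease gene Ctsb on the other strand, and the strand setting of the counting is not given in the sources used here. Ctsb was at 754, 876 and 1176 CPM in the 21 mo libraries and 746, 657 and 692 CPM with O304, so its highest library was also the highest of Fdft1, and its part in the Fdft1 counts was not tested. Of the 38 genes, 22 overlap another annotated gene, 16 of them on the other strand.

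From squalene to cholesterol, Msmo1 was higher at 21 mo while the means of Sc5d and Dhcr7 were lower. Msmo1 (chromosome 8, 64718139 to 64733792, minus strand), which removes the C4 methyl groups of sterols, was at 30.5, 32.0 and 22.5 CPM at 18 mo, 50.7, 33.1 and 61.6 CPM at 21 mo and 26.2, 21.4 and 23.6 CPM with O304. Every 21 mo library was above every 18 mo and every O304 library. Msmo1 had a log2 fold change of 0.77 (edgeR adjusted p = 0.0917, SE 0.23) for 21 mo against 18 mo and −1.03 (edgeR adjusted p = 0.175, SE 0.23) for 21 mo/O304 against 21 mo, and 0.76 (adjusted p = 0.0611) and −1.01 (adjusted p = 0.0274) without 21 mo replicate 1, where only the comparison with O304 passed.

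Dhcr7, the reductase gene of the last step, was at 28.4, 30.4 and 22.0 CPM at 18 mo, 24.6, 16.5 and 16.0 CPM at 21 mo and 19.2, 18.7 and 20.2 CPM with O304. The O304 libraries were below all 18 mo libraries, which the 21 mo libraries overlapped, with a log2 fold change of −0.50 (edgeR adjusted p = 0.147, SE 0.19) for 21 mo against 18 mo and −0.47 (edgeR adjusted p = 0.479, SE 0.19) for 21 mo/O304 against 18 mo. Sc5d, the lathosterol oxidase gene, was at 47.8, 60.2 and 46.7 CPM at 18 mo, 49.4, 29.8 and 33.6 CPM at 21 mo and 44.3, 41.5 and 50.6 CPM with O304. Sc5d had a log2 fold change of −0.46 (edgeR adjusted p = 0.183, SE 0.20) for 21 mo against 18 mo and 0.28 (edgeR adjusted p = 0.417, SE 0.20) for 21 mo/O304 against 21 mo. Without 21 mo replicate 1 the value for 21 mo against 18 mo was −0.71 (adjusted p = 0.0165) for Dhcr7 and −0.68 (adjusted p = 0.0163) for Sc5d, and that for 21 mo/O304 against 21 mo was 0.51 (adjusted p = 0.0443) for Sc5d.

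Nsdhl, which works beside Msmo1 in sterol demethylation, was at 48.2, 57.2 and 44.6 CPM at 18 mo, 65.3, 37.1 and 35.7 CPM at 21 mo and 49.1, 45.3 and 54.2 CPM with O304. The log2 fold change of −0.12 (edgeR adjusted p = 0.759, SE 0.23) for 21 mo against 18 mo was −0.44 (adjusted p = 0.0487) without 21 mo replicate 1. Sqle, the epoxidase gene that starts this stretch, was at 97.6, 79.6 and 72.0 CPM at 18 mo, 147, 96.5 and 88.5 CPM at 21 mo and 91.9, 68.8 and 50.7 CPM with O304, with a log2 fold change of −0.65 (edgeR adjusted p = 0.214, SE 0.26) for 21 mo/O304 against 21 mo. Cyp51, which removes the C14 methyl group, was at 234, 166 and 114 CPM at 18 mo, 284, 80.2 and 68.0 CPM at 21 mo and 271, 159 and 98.9 CPM with O304, and Lss, lanosterol synthase, ranged from 16.2 to 29.8 CPM over the 9 libraries. The groups of Sqle, Cyp51 and Lss overlapped between 21 mo and 18 mo.

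**Figure D5:**
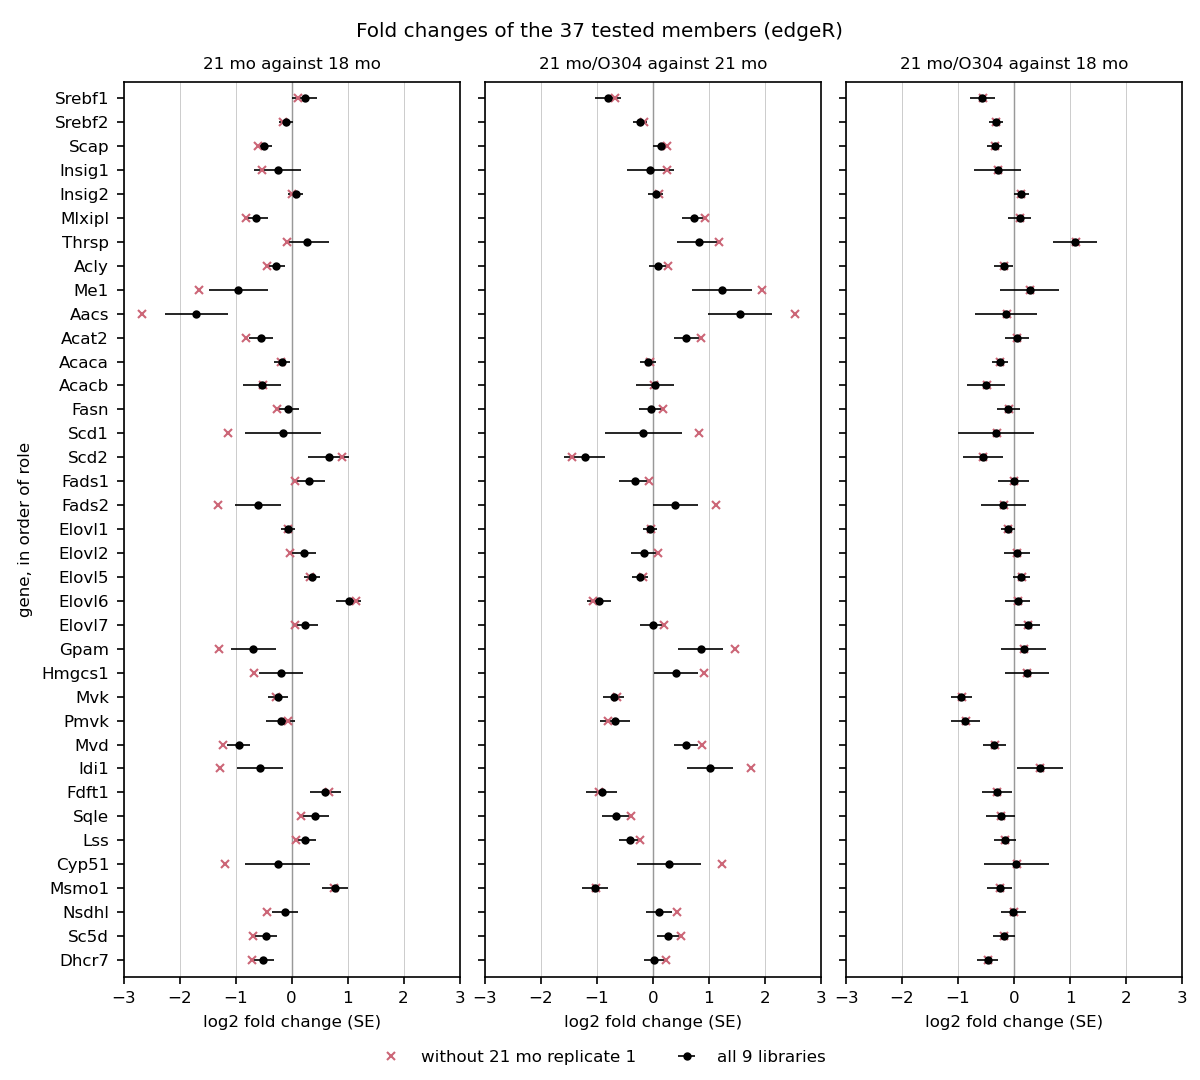
Log2 fold changes (points, all 9 libraries) with their SE (bars) for the 37 tested genes in the 3 comparisons, and the same values without 21 mo replicate 1 (crosses). Aacs, Scd1 and Cyp51 have the widest shifts between point and cross, and the points of Mvk and Pmvk are the lowest for 21 mo/O304 against 18 mo.

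Counted without regard to the fit, 2 of the 37 genes were above and 5 below all 18 mo libraries in every 21 mo library (5.41% and 13.5%, against 13.5% and 15.3% of all genes tested). The 2 were Elovl6 and Msmo1, and the 5 were Mvd, Scap, Mlxipl, Aacs and Acaca. Between 21 mo/O304 and 21 mo, 5 were above (Mlxipl, Mvd, Aacs, Acat2 and Me1) and 6 below (Msmo1, Elovl6, Mvk, Fdft1, Scd2 and Pmvk), which is 13.5% and 16.2% against 10.8% and 10.5% of all genes. Between 21 mo/O304 and 18 mo, only Thrsp was above, and 10 were below, which is 2.70% and 27.0% against 13.2% and 13.3%. These 10 were Srebf1, Srebf2 and Scap of the SREBP system, Mvk, Pmvk, Mvd and Dhcr7 of sterol synthesis, and Acly, Scd2 and Fads2.

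A further 56 genes of these pathways were examined, of which 50 passed the filter, and none had an adjusted p under 0.05 in any comparison. At an unadjusted p under 0.05, 9 were higher and 8 lower at 21 mo than at 18 mo (34.0%, against 26.1% of all genes tested). In 21 mo/O304 against 21 mo 5 were higher and 6 lower (22.0%, against 20.7%), and in 21 mo/O304 against 18 mo 2 were higher and 0 lower (4.0%, against 9.66%). With 21 mo replicate 1 left out, 6 of the 51 then tested were called higher and 13 lower at 21 mo than at 18 mo (37.3%, against 25.4% of all genes), and 11 higher and 6 lower with O304 than at 21 mo (33.3%, against 23.1%). Abca1, the cholesterol efflux transporter gene, had a log2 fold change of 1.08 (edgeR adjusted p = 0.0855, SE 0.30) for 21 mo against 18 mo and −1.08 (edgeR adjusted p = 0.175, SE 0.30) for 21 mo/O304 against 21 mo, and 1.41 (adjusted p = 0.00286) and −1.40 (adjusted p = 0.00379) without 21 mo replicate 1. Mlycd, whose product breaks down malonyl-CoA, went the other way, with −0.98 (edgeR adjusted p = 0.0817, SE 0.26) and 0.95 (edgeR adjusted p = 0.175, SE 0.26), and −1.34 (adjusted p = 0.00442) and 1.31 (adjusted p = 0.00614) without that library. Rnf139, a ubiquitin ligase gene of the endoplasmic reticulum that acts on SREBP and INSIG processing, was at 0.50 (edgeR adjusted p = 0.0631, SE 0.11) for 21 mo against 18 mo, and at 0.54 (adjusted p = 0.0164) without that library. For 21 mo/O304 against 21 mo it was at −0.11 (edgeR adjusted p = 0.566, SE 0.11). Its O304 libraries were above every 18 mo library, as were those of 13.2% of all genes tested. Dgat2, which completes triglyceride synthesis, was at −0.98 (edgeR adjusted p = 0.123, SE 0.34) for 21 mo against 18 mo and 0.91 (edgeR adjusted p = 0.202, SE 0.34) for 21 mo/O304 against 21 mo. These were −1.47 (adjusted p = 0.00606) and 1.41 (adjusted p = 0.00886) without 21 mo replicate 1.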

How the data were processed

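Kidney RNA of 9 mice was sequenced, 1 library each, and replicates were not pooled. The authors aligned the reads and counted them on genes, with HISAT2 2.0.5, featureCounts 1.5.0-p3 and the builds GRCm38 and mm10 named in the submitters' processing notes, and deposited whole counts without normalization. They also deposited FPKM, which scales each count by gene length and library size. The table also holds the authors' group means, log2 fold changes and their p-values, raw and adjusted, none of which was used here. Coordinates are those of the table, and all 38 genes overlap the RefSeq genes of the same symbol in GRCm38.p6.

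Genes were filtered by filterByExpr (minimum count 10, minimum total 15), which kept 15902 genes, and TMM-normalized. The two-sided quasi-likelihood test of edgeR 4.0.16 (R 4.3.3) used 3 group means over all 9 libraries, and p-values were Benjamini-Hochberg adjusted over all genes tested. Log2 CPM used a prior count of 2. The test was tried on simulated counts with known changes. The p-values set group differences against the spread between these mice. The labels number the replicates without naming cages or litters, so sharing of either could not be taken into account.

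The 38 genes and all lists were chosen with earlier results of these data known. Genes are given in every library if called in any comparison or any fit without 1 library, or if among the 2 smallest p-values of their role. Fdps, Srebf2, Insig1, Scd1, Hmgcs1 and Cyp51 fall outside this rule and were chosen after their values were seen. Of the 56 other pathway genes those named have the 2 smallest p-values of their list. Results that need withheld items are not reported here. Alternatives were DESeq2 1.42.0, upper-quartile normalization, 2 other count filters, a block for the replicate number, a fit to just the 6 libraries compared, voom with quality weights (limma 3.58.1), and limma-trend on log2 FPKM with a pseudocount of 1 or 0.1 for genes with a mean of at least 0.5 FPKM. An unadjusted p was also tried, and each library was left out in turn.

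Summed levels of the other cell type lists were 3090 to 8271 CPM for 9 markers of thick limb, distal tubule and collecting duct, 199 to 592 CPM for 5 podocyte markers, 194 to 533 CPM for 6 endothelial markers and 103 to 699 CPM for 8 T and B cell markers over the 9 libraries. The 8 adrenal cortex markers summed to 2.81 to 6.23 CPM, with 2 of them at 0 in every library.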

Additional observations from a re-analysis of the deposited data

How the results depend on the processing

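The count of genes past an adjusted p of 0.05 was 0 in every comparison and direction with edgeR on all 9 libraries, and stayed 0 with upper-quartile normalization, a minimum of 10 counts in every library, a fit to the 6 libraries of each comparison, limma-trend with either pseudocount and the replicate number as a block. For 21 mo against 18 mo, the higher and lower genes numbered 2 and 3 with DESeq2, 1 and 1 with every gene that had at least 1 count, 4 and 18 with limma voom and sample quality weights, 3 and 7 at an unadjusted p under 0.05, and 0 to 1 and 0 to 13 when each library was left out. For 21 mo/O304 against 21 mo they numbered 1 and 6 with DESeq2, 16 and 6 with voom, 6 and 8 at an unadjusted p, and 0 to 9 and 0 to 3 when each library was left out. For 21 mo/O304 against 18 mo they numbered 0 and 1 with DESeq2, which called Mvk, 0 and 2 with voom, which called Mvk and Pmvk, and 1 and 6 at an unadjusted p. Over all genes tested, DESeq2 called 12.3%, 5.75% and 0.884% in these comparisons and voom 52.9%, 41.1% and 2.61%. Voom gave 21 mo replicate 2 a weight of 9.11 and replicates 1 and 3 weights of 0.223 and 0.132, so its 21 mo values rest largely on 1 library. All 14 and 12 genes called without 21 mo replicate 1 were also called by voom, which gave that library little weight, so the 2 fits are not independent. DESeq2 on all 9 libraries called 4 of the 14 and 4 of the 12. The fit of every gene with at least 1 count called 2 and 0 of them.

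The text gives 43 fold changes of single genes among the 37 with an adjusted p for all 9 libraries. Of these, 42 kept their sign in all 18 alternative fits. The exception was Nsdhl for 21 mo against 18 mo, which ranged from −0.44 to 0.016 when each library was left out, the latter without 21 mo replicate 3. Values given without an adjusted p, as the ends of a range or for Elovl7, are not among the 43, and some changed sign. For 21 mo/O304 against 21 mo, leaving out each library gave −0.19 to 0.20 for Elovl7, −0.40 to 0.22 for Acacb and −0.23 to 0.0090 for Acaca. For 21 mo against 18 mo it gave −0.27 to 0.024 for Fasn. Of all 111 fold changes of the 37 genes, 36 changed sign in some fit, and the largest of them was 0.40 on the log2 scale in absolute value. The cause of these differences was not tested. Same-numbered libraries are not known to be paired, their deviations correlated at −0.13 to 0.17, and the fit with the replicate number as a block called 0 of the 37 genes in each comparison and direction. With 3 mice a group and a wide 21 mo spread, the 0 calls do not show that levels were alike.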

Other observations

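Replicate 1 was the highest library in each of the 3 groups for 9 of the 37 tested genes, against 5.48% of all genes tested, a count that was made after the values were seen. These were Srebf1, Scap, Insig1, Scd1, Fads1, Elovl7, Sqle, Lss and Cyp51. Replicates 2 and 3 were the highest in each group for 0 of the 37 genes, against 2.36% and 5.64% of all genes tested. Cyp51 was at 234, 284 and 271 CPM in the 3 libraries numbered 1 and at 68.0 to 166 CPM in the other 6, and Scd1 was at 430.5, 508 and 375 CPM against 82.5 to 211 CPM. The 9 markers of thick limb, distal tubule and collecting duct summed to 8271, 7115 and 5106 CPM in the libraries numbered 1, also the highest of each group, and their part in this was not tested.

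Insig1, a target of the SREBP pathway that restrains it, was at 14.5 CPM in 21 mo replicate 2 and at 28.3 to 54.9 CPM in the other 8 libraries, while Insig2 was at 58.0 CPM in that library.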
